A study of Mus musculus with 24 samples.

Results

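The comparison described here set the cerebellar transcriptome of 4 S776A double mice against that of 4 WT mice at 6 weeks of age. The S776A double libraries were those with the genotype label double. The WT libraries were the 4 of 8 in which more than 8% of all fragments lay outside annotated genes, so 8 of the 24 libraries of the series entered the comparison. S776A double mice carried an Atxn1 allele with an expanded CAG repeat, 154Q, and an unexpanded allele, 2Q, each with the serine-to-alanine change S776A, written Atxn1 154Q[S776A]/2Q[S776A]. WT mice carried 2 unexpanded, unedited alleles. The S776A change was made with CRISPR/Cas9 in C57BL/6J WT mice for the unexpanded allele and in SCA1 knock-in mice for the expanded allele, with further synonymous changes beside it, and each line was backcrossed to C57BL/6J. The edits are knock-ins carried by every cell and are tied to no cell type. Both S776A double and WT libraries came from whole cerebellar tissue, so each value is a mean over all the cells of the tissue, and fewer cells of a type cannot be told apart from less RNA per cell.

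In SCA1, spinocerebellar ataxia type 1, 1 copy of ATXN1 with too many CAG repeats is enough to cause loss of coordination and of neurons, and the protein it encodes has a long run of glutamines. ATXN1 is a nuclear protein that binds the transcriptional repressor Capicua (Cic), and cerebellar Purkinje cells, the only output neurons of the cerebellar cortex, are among the most affected cells. Phosphorylation of its serine S776 allows 14-3-3 proteins to bind ATXN1 and slows its degradation, and the alanine that replaces it cannot be phosphorylated. The comparison asked which transcripts still differed from WT when the phosphorylation site was lost from both the expanded and the unexpanded protein.

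The edited codon lies in the last coding exon, exon 8 of 8, of Atxn1 on the minus strand of mouse chromosome 13. The sequence below is that of the reference genome (GRCm38) on the coding strand at chr13:45557154-45557204, and is shown because the edit that defines the S776A double mice replaced it. Capitals mark the serine codon, which is residue 751 of the 791 residues encoded by the mouse reference transcript and is called S776 in the study.
Atxn1 S776 site: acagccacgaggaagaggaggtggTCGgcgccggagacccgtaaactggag

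Between 73774038 and 85575119 fragments were assigned to genes in the S776A double libraries and between 64233070 and 71823279 in the WT libraries. Fragments outside annotated genes made up 9.83% to 11.5% of each of the 8 libraries. Mice of one genotype differed by more than counting error, and the chi-square over its degrees of freedom was 22.3 to 58.6 between pairs of S776A double mice and 7.87 to 21.2 between pairs of WT mice. S776A double mouse 1 stood apart. Xist, the transcript expressed from the inactive X chromosome of females, was at 843 CPM (counts scaled to a fixed library size) in that mouse and at most 0.870 CPM in the other 7, and the Y-linked gene Ddx3y was at 0.250 CPM there and 87.3 to 107 CPM in the others. The labels do not give the sex of the mice. The choroid plexus, a secretory tissue that lies against the cerebellum, also differed between mice of each genotype. The summed level of 12 choroid plexus genes was 186, 181, 4976 and 4433 CPM in S776A double mice 1 to 4 and 475, 177, 2996 and 2966 CPM in WT mice 1 to 4. It was thus high in mice 3 and 4 of both genotypes.

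In the edgeR test of all 8 mice, few genes passed an adjusted p of 0.05 between S776A double and WT mice. Of 21156 genes tested, 1 (0.00473%) was downregulated at an adjusted p under 0.01 with a log2 fold change under -0.5, and 0 (0.0%) were upregulated with one over 0.5 (edgeR quasi-likelihood test, Benjamini-Hochberg adjustment). At an adjusted p under 0.05, without a fold threshold, 20 genes (0.0945%) were downregulated and 6 (0.0284%) were upregulated, 26 (0.123%) in all. At an unadjusted p under 0.05, 2562 genes (12.1%) differed, 1322 (6.25%) lower and 1240 (5.86%) higher. In 766 genes (3.62%) all 4 S776A double mice lay below all 4 WT mice, and in 812 (3.84%) all lay above, 1578 genes (7.46%) without overlap. DESeq2 on the same 8 libraries gave 23 lower and 13 higher genes by the strict rule and 344 at an adjusted p under 0.05. ComBat-seq on all 24 libraries followed by DESeq2 gave 26 lower, 29 higher and 288. The study took these steps too, but here the 8% split stood in for its batches and DESeq2 was a later version. The counts are therefore not those of the study. The 26 genes at an adjusted p under 0.05 in edgeR kept their direction in both DESeq2 runs, though both used the 8 libraries that chose them. With all 8 WT libraries and no term for the split, 8 genes passed an adjusted p of 0.05, 7 of the 26 among them, and 24 of the 26 kept their direction, with Slc16a11 and Pitpnm3 as the exceptions.

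The number of genes called depended on which mouse was left out. Without S776A double mouse 1, the mouse with Xist, 143 genes passed an adjusted p of 0.05, and 25 of the 26 were among them. With the level of Xist as a covariate, which in effect sets apart only that mouse, 121 passed. Without S776A double mouse 2, 3 or 4 the count was 18, 9 and 41, and without WT mouse 1, 2, 3 or 4 it was 7, 1, 16 and 14. The sole gene left without WT mouse 2 was one of the 26. In each of these fits all 26 genes kept their direction. The S776A double and WT mice did not overlap in any of the 26, so leaving out a mouse could hardly have reversed one.

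Myo15, which encodes an unconventional myosin known from the stereocilia of inner ear hair cells, passed the strict rule. It lies at chr11:60469339-60528369 on the plus strand (GRCm38). Its level was 3.46, 2.85, 2.34 and 3.28 CPM in S776A double mice 1 to 4 and 8.85, 10.0, 7.62 and 7.44 CPM in WT mice 1 to 4. The highest S776A double mouse, mouse 1, was below the lowest WT mouse, mouse 4. The log2 fold change was -1.51 ± 0.14 (SE), with an adjusted p of 0.00137. Without WT mouse 1, 0 genes passed the strict rule.

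**Figure D1:**
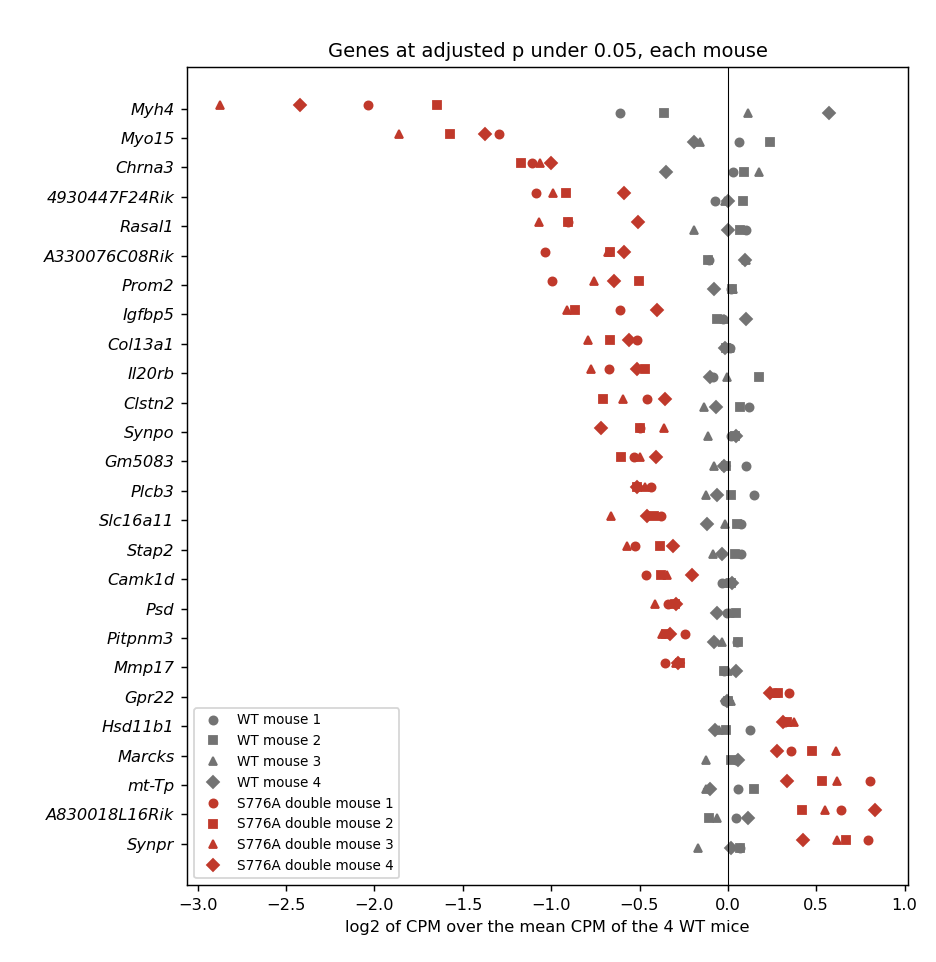
Each point is 1 mouse, red for S776A double and grey for WT, and the horizontal axis gives the log2 of its CPM over the mean CPM of the 4 WT mice for each of the 26 genes at an adjusted p under 0.05. The S776A double mice lie to the left of all WT mice in 20 genes and to the right in 6, with the widest separation in Myh4, Myo15 and Chrna3.

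The first downregulated genes given here are Plcb3, Chrna3, Rasal1, Psd and Clstn2. Plcb3 encodes phospholipase C beta 3, which in a subset of Purkinje cells couples glutamate signals to calcium release. Plcb3 was at 69.2, 65.4, 67.6 and 65.3 CPM in S776A double mice and 104, 94.7, 85.8 and 89.7 CPM in WT mice. The S776A double mice lay close together and all below the WT mice, a log2 fold change of -0.48 ± 0.06 (adjusted p = 0.0107). Chrna3, which encodes the alpha 3 subunit of nicotinic acetylcholine receptors, was at 0.918, 0.879, 0.949 and 0.992 CPM against 2.02, 2.11, 2.24 and 1.55 CPM. These levels were low, and the log2 fold change was -1.08 ± 0.15 (adjusted p = 0.0155). Rasal1, a Ras GTPase-activating protein, was at 13.2, 13.2, 11.8 and 17.4 CPM in S776A double mice and 26.6, 26.0, 21.7 and 24.8 CPM in WT mice. Mouse 4 was the highest of the S776A double mice and still below every WT mouse (log2 fold change -0.83 ± 0.11, adjusted p = 0.0155). Psd, an exchange factor for the small GTPase Arf6 at synapses, ranged from 155 to 169 CPM in S776A double and from 198 to 214 CPM in WT mice (log2 fold change -0.33 ± 0.05, adjusted p = 0.0155). Clstn2, a calsyntenin of the postsynaptic membrane, ranged from 42.0 to 53.6 against 62.6 to 74.6 CPM, a log2 fold change of -0.52 ± 0.08 (adjusted p = 0.0269).

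Il20rb, Slc16a11, Prom2, Mmp17, Pitpnm3 and Stap2 were also downregulated. Il20rb, a subunit of receptors for cytokines of the interleukin 20 family, was at 42.7, 49.2, 39.7 and 47.6 CPM in S776A double mice and 64.2, 76.8, 67.8 and 63.5 CPM in WT mice. The lowest WT mouse was still above the highest S776A double mouse, and the log2 fold change was -0.60 ± 0.08 (adjusted p = 0.0152). Slc16a11, a member of the monocarboxylate transporter family, was at 114, 111, 94.2 and 108 CPM against 157, 154, 147 and 137 CPM. S776A double mouse 3 was the lowest, and the log2 fold change was -0.48 ± 0.07 (adjusted p = 0.0155). Prom2, a pentaspan membrane glycoprotein, fell from 6.01 to 6.47 CPM in WT to 3.18 to 4.48 CPM in S776A double mice (log2 fold change -0.71 ± 0.11, adjusted p = 0.0269). The membrane-anchored metalloproteinase Mmp17 had a smaller change and a narrow spread, 34.0 to 36.1 against 42.8 to 45.0 CPM (log2 fold change -0.30 ± 0.05, adjusted p = 0.0269). Pitpnm3, which has a phosphatidylinositol transfer domain, and Stap2, an adaptor protein, had log2 fold changes of -0.32 ± 0.05 (adjusted p = 0.0269) and -0.44 ± 0.07 (adjusted p = 0.0219).

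Igfbp5, Synpo, Col13a1, Camk1d and the noncoding A330076C08Rik were past the first 15 downregulated genes by p and are named after their values were seen. Igfbp5, a secreted protein that binds insulin-like growth factors, was at 155, 130.1, 126 and 179 CPM in S776A double mice and 232, 227, 233 and 254 CPM in WT mice. The WT mice were close together, and S776A double mouse 4 was nearest to them (log2 fold change -0.68 ± 0.10, adjusted p = 0.0381). Synpo, the actin-associated protein synaptopodin, had a log2 fold change of -0.51 ± 0.08 (adjusted p = 0.0295). Col13a1, a transmembrane collagen, had one of -0.63 ± 0.10 (adjusted p = 0.0343) and Camk1d, a calcium/calmodulin-dependent kinase, one of -0.34 ± 0.06 (adjusted p = 0.0343).

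Myh4, a fast myosin heavy chain of skeletal muscle, had the largest log2 fold change of the 26 genes at a very low level. It was at 0.477, 0.626, 0.267 and 0.366 CPM in S776A double mice and 1.28, 1.52, 2.12 and 2.91 CPM in WT mice, a log2 fold change of -2.17 ± 0.30 (adjusted p = 0.0208). Other skeletal muscle genes were listed after Myh4 had been seen. Of 11 such genes 10 were tested, 8 had a negative and 2 a positive log2 fold change, 1 (Myh4) passed an adjusted p of 0.05, and 6 had all S776A double mice below all WT mice (Myh4, Acta1, Mylpf, Tnnt3, Ckm and Atp2a1). Over all genes tested, 3.62% lay below every WT mouse and 0.0945% were lower at an adjusted p under 0.05. The summed level of the muscle genes was 7.99 to 9.88 CPM in S776A double and 11.9 to 15.3 CPM in WT mice. Acta1, skeletal muscle actin, was at 3.15, 3.797, 3.51 and 3.77 CPM against 5.74, 4.47, 5.10 and 4.66 CPM (log2 fold change -0.49 ± 0.11, adjusted p = 0.137). In SCA1 S776A mice Myh4 was at 11.0 ± 20.6 CPM (SD, n = 4), so its level also varied widely between mice of a single genotype. In the fit of 16 libraries, which holds those mice, Myh4 did not pass against the same WT mice (log2 fold change -2.17 ± 1.53, adjusted p = 0.599). It passed an adjusted p of 0.05 in 10 of 18 alternative settings. The part of muscle RNA in the Myh4 result was not tested.

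The noncoding transcripts among the 26 genes were all lower in S776A double mice, apart from a mitochondrial transfer RNA. 4930447F24Rik, a transcript within the gene Bsn and on the opposite strand, was at 6.13, 6.89, 6.55 and 8.64 CPM in S776A double mice and 12.4, 13.8, 12.9 and 13.0 CPM in WT mice (log2 fold change -0.88 ± 0.10, adjusted p = 0.0107). The counts did not use strand, so unspliced RNA of Bsn and this transcript cannot be told apart. Plcb3, Psd, Clstn2, Col13a1, Camk1d, Synpr, Gpr22, A830018L16Rik and Hsd11b1 also overlap the body of an annotated gene. Fragments on exons of both are counted for neither. RNA of the overlapping gene that falls only on exons of these genes cannot be told apart from their own. The other noncoding genes, Gm5083 and A330076C08Rik, are long intergenic noncoding RNAs on chromosome 13, as is Atxn1.

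Of the 6 upregulated genes, Synpr had the lowest p. Synpr encodes synaptoporin, a protein of synaptic vesicles, and lies at chr14:13284780-13616340 on the plus strand. It was at 131, 120.3, 116 and 102 CPM in S776A double mice and 79.3, 79.4, 67.3 and 76.7 CPM in WT mice. All S776A double mice lay above all WT mice, and the log2 fold change was 0.63 ± 0.08 (adjusted p = 0.0107). Marcks, a major substrate of protein kinase C that binds actin and the membrane, was at 237, 257, 282 and 223 CPM against 191, 186, 169 and 192 CPM (log2 fold change 0.44 ± 0.07, adjusted p = 0.0307). A830018L16Rik, a protein-coding gene, rose from 8.06 to 9.40 CPM in WT to 11.6 to 15.5 CPM in S776A double mice (log2 fold change 0.62 ± 0.10, adjusted p = 0.0269). Smaller changes were found for Hsd11b1, which regenerates active glucocorticoid, with 76.7 to 80.3 against 58.7 to 67.4 CPM (log2 fold change 0.34 ± 0.05, adjusted p = 0.0269). Gpr22, an orphan G protein-coupled receptor, was at 133, 127, 126 and 123 CPM against 104, 104, 106 and 104 CPM, with little spread among WT mice (log2 fold change 0.28 ± 0.04, adjusted p = 0.0269). The mitochondrial transfer RNA gene mt-Tp was at 59.6, 49.5, 52.4 and 43.2 CPM against 35.6, 37.8, 31.4 and 31.9 CPM (log2 fold change 0.58 ± 0.09, adjusted p = 0.0383). Pafah1b3, a subunit of a platelet-activating factor acetylhydrolase of the brain, and Rprm, a protein linked to cell cycle arrest, did not pass, with log2 fold changes of 0.50 ± 0.09 (adjusted p = 0.0627) and 0.60 ± 0.11 (adjusted p = 0.0638).

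Atxn1 itself was not called in the comparison of the 8 libraries. It passed an adjusted p of 0.05 with ComBat-seq and DESeq2 (adjusted p = 0.0156), and in edgeR without S776A double mouse 4 (adjusted p = 0.0239). Its mRNA, summed over both alleles, was at 70.6, 66.2, 64.3 and 51.3 CPM in S776A double mice and 50.8, 54.8, 50.8 and 49.99 CPM in WT mice. In 3 of 4 S776A double mice it was above every WT mouse, and mouse 4 lay within the WT range. The log2 fold change was 0.29 ± 0.08 with an adjusted p of 0.211, and exact permutation of the mean log2 CPM (two-sided) gave p = 0.0571, where 4 against 4 mice can give no p below 0.029. Its paralog Atxn1l, whose protein forms the same complexes with Capicua, had a log2 fold change of -0.11 ± 0.07 (exact two-sided permutation p = 0.286). Of the 9 tested of 10 genes of the ATXN1 complex, 0 passed an adjusted p of 0.05, and 2 passed an unadjusted p of 0.05, with Atxn1 among them. Over all genes tested, 12.1% passed an unadjusted p of 0.05. Cic, the Capicua gene, had -0.14 ± 0.08 and Rbm17, a splicing factor that binds ATXN1, 0.02 ± 0.06.

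Genes of 14-3-3 proteins and of the kinases proposed for S776 showed small differences. Of 7 genes for 14-3-3 proteins 0 passed an adjusted p of 0.05, and their median log2 fold change was 0.03. Ywhab ranged from 404 to 440.0 CPM in S776A double mice and from 384 to 387 CPM in WT mice, without overlap, a log2 fold change of 0.13 ± 0.05 (adjusted p = 0.293). Ywhaq was also higher in all S776A double mice than in all WT mice (0.12 ± 0.05, adjusted p = 0.319). Beside these 2 of 7, 3.84% of all genes tested lay above every WT mouse. Among the 4 kinase genes 0 passed, and Rps6ka5, which encodes MSK1, had 0.10 ± 0.05 (adjusted p = 0.455).

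Target genes of Capicua had log2 fold changes of both signs. Of 13 target genes 0 passed an adjusted p of 0.05, 7 had a negative and 6 a positive log2 fold change, and the median was -0.03 beside 0.0011 over all genes tested. Without WT mouse 4 the median was 0.13. Fosl1, a subunit of the transcription factor AP-1, had the lowest p (log2 fold change -0.33 ± 0.10, adjusted p = 0.228). The ETS factor genes Etv1, Etv4 and Etv5 had 0.07 ± 0.08, -0.09 ± 0.09 and -0.03 ± 0.17. The letters TGAATGA or TGAATGG, the core of the motif that Capicua is known to bind, were searched on both strands from 250 bases before to 50 bases after the start of each gene in RefSeq promoter sequences (GRCm38.p6). Of 28 named genes 20 had such a sequence, and 1 of them (Myh4) held the motif, while 8.16% of 27025 genes held it.

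**Figure D2:**
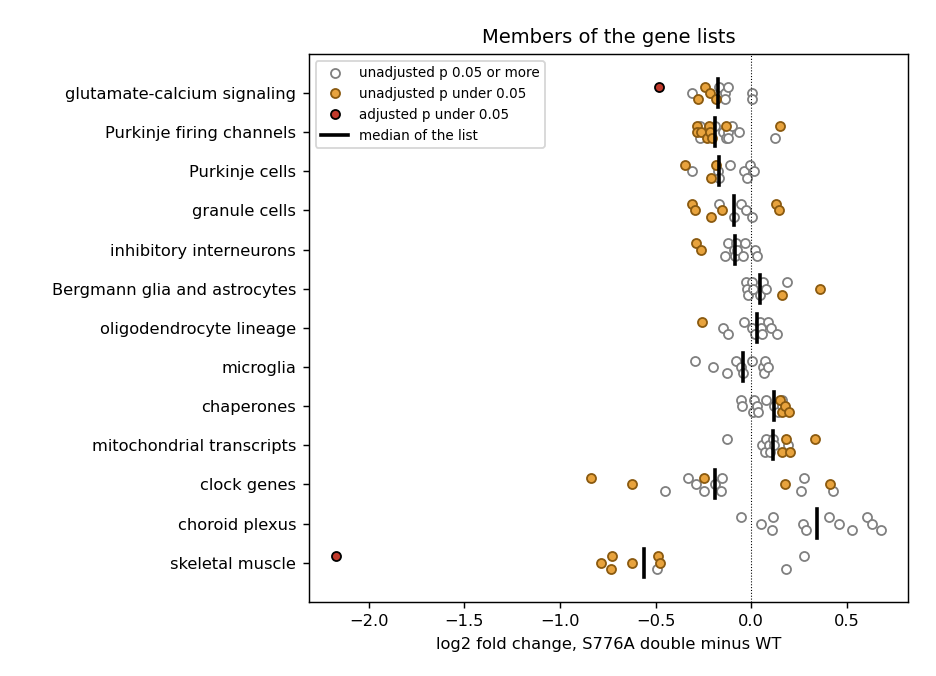
Each point is 1 gene of a list, placed by its log2 fold change between S776A double and WT mice, filled red at an adjusted p under 0.05 and orange at an unadjusted p under 0.05, and the black bars are list medians. Members of the glutamate-calcium signaling, Purkinje firing channel and Purkinje cell lists lie mostly left of 0, with medians of -0.18, -0.19 and -0.17.

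The glutamate-calcium signaling pathway of Purkinje cells drives calcium release and slow currents at synapses from granule cell axons. Of its 12 genes 1 (Plcb3) was downregulated at an adjusted p of 0.05 and 0 were upregulated, while 10 had a negative log2 fold change and 5 a negative one at an unadjusted p under 0.05. Over all genes tested, 10515 of 21156 had a negative log2 fold change. Of all of them, 6.25% were lower at an unadjusted p under 0.05 and 0.0945% at an adjusted one, and 3.62% lay below every WT mouse. The median of the 12 genes was -0.18. Homer3, a scaffold that links glutamate receptors to the calcium channel of the endoplasmic reticulum, was at 183, 180.2, 187 and 189 CPM in S776A double mice and 237, 198, 209.7 and 215 CPM in WT mice. The groups did not overlap, but the gene did not pass (log2 fold change -0.22 ± 0.06, adjusted p = 0.166). Rgs8, a regulator of G protein signaling in Purkinje cells, had -0.28 ± 0.08 (adjusted p = 0.199). Itpr1, the calcium channel of that membrane, was at 4036, 2326, 2370.3 and 3059.8 CPM against 4224, 3484, 3474 and 3421 CPM. S776A double mouse 1 lay within the WT range and mice 2 and 3 well below it (log2 fold change -0.31 ± 0.18, adjusted p = 0.549). Gnaq, a G protein subunit, and Plcb4, another phospholipase C, had 0.00 ± 0.06 and 0.01 ± 0.06.

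Ion channels and pumps that set the firing of Purkinje cells showed small differences. Of 19 genes 0 passed an adjusted p of 0.05, 17 had a negative log2 fold change, 9 passed an unadjusted p of 0.05 (8 lower and 1 higher), and the median was -0.19. Over all genes tested, 6.25% were lower and 5.86% higher at an unadjusted p under 0.05. The potassium channel gene Kcnc1 was at 677, 722, 697 and 779 CPM in S776A double mice and 914, 908, 832 and 793 CPM in WT mice (log2 fold change -0.26 ± 0.06, adjusted p = 0.147). It was below every WT mouse in every S776A double mouse. Kcna2 was also lower in every S776A double mouse (-0.13 ± 0.05), and Kcnab1, a potassium channel beta subunit, was higher in every one (0.15 ± 0.04, adjusted p = 0.216). In 3 of the 19 genes all S776A double mice lay below all WT mice and in 1 above, beside 3.62% and 3.84% of all genes tested. Cacna2d2, a calcium channel subunit, had -0.23 ± 0.07 and Atp2a3, a calcium pump, -0.28 ± 0.08. Without S776A double mouse 1, Cacna2d2 passed (log2 fold change -0.28, adjusted p = 0.0431).

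Genes that mark Purkinje cells had log2 fold changes from -0.35 to 0.01. Of 11 genes 0 passed, 10 had a negative log2 fold change and the median was -0.17. In 1 of the 11, Lhx5, all S776A double mice lay below all WT mice, beside 3.62% of all genes tested. Lhx5, a transcription factor of Purkinje cells, was at 23.9, 21.5, 23.3 and 24.3 CPM in S776A double mice and 33.8, 29.1, 26.3 and 29.0 CPM in WT mice, without overlap (log2 fold change -0.35 ± 0.07, adjusted p = 0.113). Slc1a6, the glutamate transporter of Purkinje cells, had -0.21 ± 0.06 (adjusted p = 0.233). Calb1, calbindin, was at 1232, 1166, 1146 and 1158 CPM against 1213, 1156, 1145 and 1217 CPM, a log2 fold change of -0.01 ± 0.05, and Car8 and Ppp1r17 had -0.04 ± 0.06 and -0.02 ± 0.05. Among 7 genes that differ between zebrin stripes of Purkinje cells, Plcb3 passed, beside 0.0945% of all genes tested that were lower. Plcb3 is the same gene that was called in the glutamate-calcium signaling list. Aldoc, the gene of zebrin II, had -0.11 ± 0.06 (adjusted p = 0.524).

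The summed levels of these lists separated the S776A double mice among themselves. For the Purkinje firing channels the sum was 6315, 5265, 5413 and 6049 CPM in S776A double mice 1 to 4 and 7093, 6577, 6323 and 6355 CPM in WT mice 1 to 4. All S776A double mice were below all WT mice, mouse 1 by the smallest margin. For the Purkinje cell markers the sum was 8169, 6088, 6126 and 6933 CPM against 8445, 7339.8, 7426 and 7527 CPM, and S776A double mouse 1 was within the WT range. Itpr1 alone holds much of that sum. In the granule cell list, in contrast, mouse 1 was the lowest, with 7093, 7872, 7700.5 and 7841 CPM in S776A double and 8372, 8488, 8042 and 8194 CPM in WT mice. Whether Xist or sex has a part in the difference of mouse 1 was not tested, since it was the only such mouse.

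**Figure D3:**
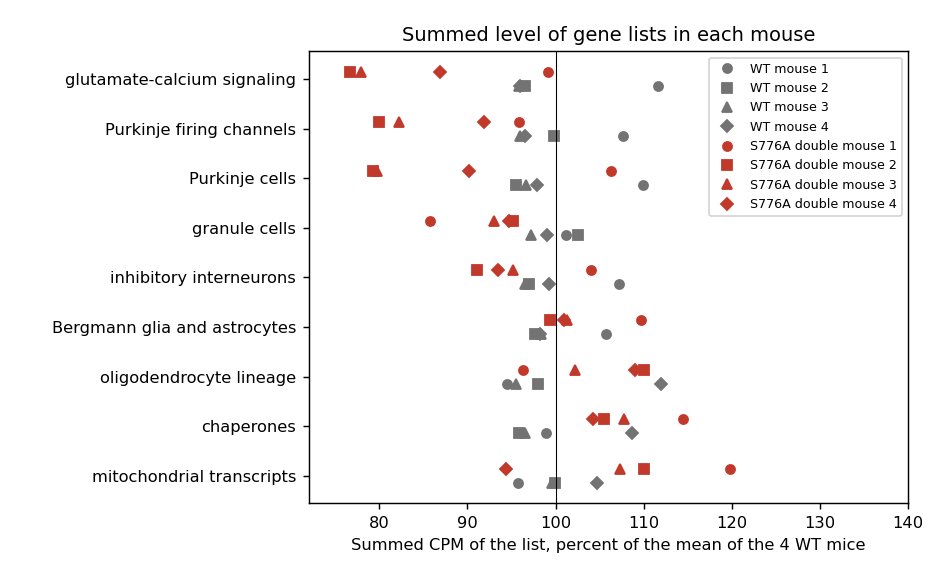
Each point is 1 mouse, red for S776A double and grey for WT, and the horizontal axis gives the summed CPM of a gene list as a percent of the mean of the 4 WT mice. For the Purkinje firing channels and the granule cell genes all S776A double mice lie left of all WT mice, and S776A double mice 2 and 3 are lowest in the 3 Purkinje cell lists.

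Granule cells, the most numerous neurons of the cerebellum, showed differences in both directions. Of 11 genes 0 passed an adjusted p of 0.05, 4 were lower and 2 higher at an unadjusted p under 0.05, and the median log2 fold change was -0.09. The shares over all genes tested were 6.25% lower and 5.86% higher. Fat2, a large cadherin at granule cell axons, was at 697, 755, 783 and 788 CPM in S776A double mice and 938, 1030.0, 921 and 855 CPM in WT mice (log2 fold change -0.31 ± 0.06, adjusted p = 0.0972). Chn2, a GTPase-activating protein for Rac, had -0.30 ± 0.07 (adjusted p = 0.139) and Zic2, a zinc finger transcription factor, -0.21 ± 0.05 (adjusted p = 0.158). Fat2, Chn2, Zic2 and Cbln3 were lower in every S776A double mouse than in every WT mouse, beside 3.62% of all genes tested. Gabra6, the GABA receptor subunit typical of granule cells, was on the other side, with 915, 871, 806 and 881 CPM against 794, 761, 769 and 816 CPM (log2 fold change 0.15 ± 0.05, adjusted p = 0.309). Slc17a7 and Neurod1 had -0.09 ± 0.06 and 0.00 ± 0.06.

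Receptors for glutamate and GABA had log2 fold changes of both signs. Of 23 genes 0 passed, 4 were lower and 4 higher at an unadjusted p under 0.05, and the median was -0.10. The shares over all genes tested were 6.25% lower and 5.86% higher. The metabotropic receptor gene Grm4 was at 406, 500.4, 517 and 617 CPM in S776A double mice and 726, 740.4, 646 and 634 CPM in WT mice (log2 fold change -0.43 ± 0.11, adjusted p = 0.189). Grm2 had -0.26 ± 0.06 (adjusted p = 0.139) and the GABA type B receptor gene Gabbr1 -0.17 ± 0.05 (adjusted p = 0.249). The kainate receptor gene Grik2 was at 173, 173, 163 and 188 CPM against 134, 155, 148 and 144 CPM, higher in every S776A double mouse (log2 fold change 0.26 ± 0.06, adjusted p = 0.119). Gria2, an AMPA receptor subunit gene, was likewise above WT in every S776A double mouse, with 0.20 ± 0.06. In 4 of the 23 genes all S776A double mice lay above all WT mice and in 3 below, beside 3.84% and 3.62% of all genes tested.

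The nicotinic receptor genes Chrna5, Chrna3 and Chrnb4 lie beside each other on chromosome 9. Chrnb4, the beta 4 subunit gene, was at 0.501, 0.799, 0.975 and 0.731 CPM in S776A double mice and 1.81, 2.78, 1.59 and 1.04 CPM in WT mice. The groups did not overlap, but the WT mice spread widely and the gene did not pass (log2 fold change -1.26 ± 0.29, adjusted p = 0.14). It passed in the fits of 16 (adjusted p = 0.0396) and of 24 libraries, with DESeq2, and with ComBat-seq and DESeq2 (adjusted p = 1.85e-05). Chrna5 was too low to be tested. Among 27 genes tested of 28 that are mutated in spinocerebellar ataxias, 0 passed, and 3, with Fat2 among them, were lower in every S776A double mouse. Elovl4, a fatty acid elongase gene, was higher in every one (0.13 ± 0.05). Over all genes tested, 3.62% lay below every WT mouse and 3.84% above every one.

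Glial and other cell type lists held 0 genes past an adjusted p of 0.05. Gfap, the intermediate filament of astrocytes, was at 191, 172, 185 and 165 CPM in S776A double mice and 176, 176, 182 and 178 CPM in WT mice, a log2 fold change of 0.00 ± 0.05. The 11 genes of Bergmann glia and astrocytes had a median log2 fold change of 0.04, the 12 of the oligodendrocyte lineage 0.03, the 11 of microglia -0.04 and the 12 of inhibitory interneurons -0.08. In the meningeal list the collagen genes Col1a1 and Col1a2 were lower in every S776A double mouse (-0.56 ± 0.14, adjusted p = 0.19, and -0.30 ± 0.06, adjusted p = 0.0685), while Dcn and Lum had 0.21 ± 0.07 and 0.42 ± 0.13. Of all genes tested, 3.62% lay below every WT mouse. The choroid plexus list had a median of 0.35 and no member below an unadjusted p of 0.05, and mice 3 and 4 of both genotypes carried its high values. Without S776A double mouse 3 the median was -0.31. With DESeq2 on the 8 libraries, list members that did not pass in edgeR passed an adjusted p of 0.05, among them Homer3, Kcnc1, Lhx5, Fat2, Chn2, Zic2, Grm2, Grm4, Col1a1 and Col1a2 (lower) and Grik2 (higher). With the choroid plexus level as a covariate, an alternative chosen after seeing the data, 34 genes passed an adjusted p of 0.05 and all 26 were among them.

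Genes of protein folding and mitochondria had mostly positive log2 fold changes, and 0 passed in either list. Of 15 chaperone genes 0 passed, 13 had a positive log2 fold change and the median was 0.12. Hsp90aa1 was at 1076, 1061, 1066 and 1014 CPM in S776A double mice and 929.8, 905, 940.4 and 996 CPM in WT mice (log2 fold change 0.16 ± 0.05, adjusted p = 0.25), and Hspa8 had 0.20 ± 0.07 (adjusted p = 0.269). Of 13 transcripts of the mitochondrial genome 12 had a positive log2 fold change, the median was 0.11, and 0 passed. Mitochondrial fragments made up 3.11% to 3.84% of gene fragments in S776A double and 3.03% to 3.41% in WT libraries, and their part in the higher mt-Tp was not tested. Without S776A double mouse 1 the chaperone median was 0.05. The clock gene Nr1d1, the nuclear receptor REV-ERB alpha, was at 126, 71.8, 80.8 and 89.0 CPM against 152, 152, 137 and 125 CPM (log2 fold change -0.62 ± 0.17, adjusted p = 0.254). Without S776A double mouse 1 it passed with a log2 fold change of -0.81 (adjusted p = 0.00571).

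Genes near Atxn1 were examined because all S776A double mice carry the edited alleles and the chromosome around them. Of 83 genes tested within 5 Mb of either end of Atxn1, 2 were downregulated at an adjusted p of 0.05 and 0 were upregulated. Over all genes tested the shares were 0.0945% and 0.0284%. At an unadjusted p under 0.05, 7 of the 83 were lower and 9 higher, beside 6.25% and 5.86% of all genes tested. In 5 of them all S776A double mice lay below all WT mice and in 3 above, beside 3.62% and 3.84%. The median log2 fold change was 0.01. Gm5083, at chr13:44121167-44125179 on the plus strand, was at 12.8, 12.1, 13.1 and 13.9 CPM in S776A double mice and 19.8, 18.3, 17.5 and 18.1 CPM in WT mice (log2 fold change -0.51 ± 0.07, adjusted p = 0.0155). A330076C08Rik, at chr13:44185760-44216487 on the minus strand, was at 1.98, 2.56, 2.54 and 2.703 CPM against 3.78, 3.76, 4.36 and 4.34 CPM (log2 fold change -0.73 ± 0.12, adjusted p = 0.0403). Both were lower in every S776A double mouse and start 1.84 and 1.75 Mb from the start of Atxn1. Fgd3, an exchange factor for Cdc42, lies on the other side and had -0.26 ± 0.05 (adjusted p = 0.0936). In the fit of 16 libraries, SCA1 mice, whose expanded allele is unedited, differed from the same WT mice by -0.73 ± 0.07 for Gm5083 (adjusted p = 1.22e-05) and by -0.94 ± 0.14 for A330076C08Rik (adjusted p = 0.000907). The repeat expansion and other sequence inherited with the expanded allele cannot be told apart.

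**Figure D4:**
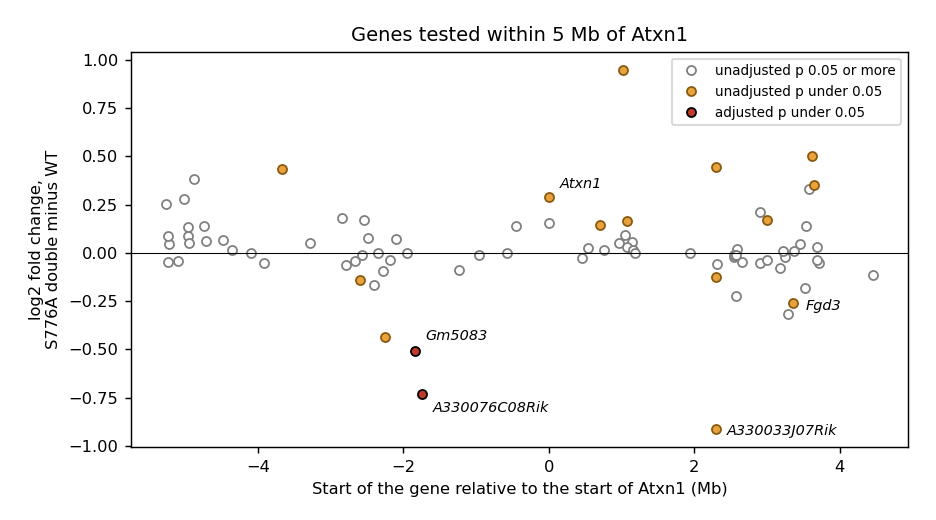
Each point is 1 of the 83 genes tested within 5 Mb of either end of Atxn1, with the distance of its start from the start of Atxn1 in Mb on the horizontal axis and its log2 fold change between S776A double and WT mice on the vertical axis. The 2 red points at an adjusted p under 0.05, Gm5083 and A330076C08Rik, lie next to each other, while most of the other genes lie near 0.

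The S776A double mice were also set directly against the 2 genotypes most like them, in 1 fit of 16 libraries that all have over 8% of fragments outside annotated genes. SCA1 mice, Atxn1 154Q/2Q, carry the expanded allele without the edit, and SCA1 S776A mice, Atxn1 154Q[S776A]/2Q, carry the edit only on the expanded allele. Against SCA1, 2 of 22054 genes (0.00907%) passed an adjusted p of 0.05, and 1038 (4.71%) had an unadjusted p below 0.05. They were the noncoding gene Gm15083, with 2.42 ± 0.321 CPM in S776A double and 1.12 ± 0.138 CPM in SCA1 mice (SD, n = 4 each), a log2 fold change of 1.12 ± 0.16 (edgeR, adjusted p = 0.0148), and the centrosomal gene Cep76, with 178 ± 6.85 against 141 ± 7.35 CPM (0.33 ± 0.05, adjusted p = 0.0497). Both were named after their values were seen. In the fit of all 24 libraries 1 gene passed, with DESeq2 on the 16 libraries 8 did, and leaving out any 1 of the S776A double mice or of SCA1 mice 1 to 3 left 0 or 1, while 2 passed without SCA1 mouse 4. Against SCA1 S776A, 0 genes (0.0%) passed in edgeR, 974 (4.42%) had an unadjusted p under 0.05, and DESeq2 on the 16 libraries also called 0 (1141 at an unadjusted p under 0.05).

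None of the 26 genes passed against SCA1 or SCA1 S776A in that fit. These comparisons share the S776A double mice with the comparison that chose the genes, so the values are given side by side. Chrna3 had a log2 fold change of -1.08 against WT, 0.78 ± 0.19 against SCA1 (adjusted p = 0.632) and -0.01 ± 0.19 against SCA1 S776A. For Myo15 the log2 fold changes were -1.51, 0.32 ± 0.14 and -0.55 ± 0.14, and for Igfbp5 they were -0.68, 0.37 ± 0.11 and -0.06 ± 0.11. Plcb3 had -0.48, 0.23 ± 0.06 and -0.15 ± 0.06. The S776A double mice thus had values above those of SCA1 mice and below those of WT mice in these 4 genes, without passing the test against SCA1. Other downregulated genes varied in this. Against SCA1, Clstn2 had 0.24 ± 0.08 and Mmp17 0.20 ± 0.05. Prom2 had 0.01 ± 0.12, Col13a1 0.02 ± 0.11, Synpo 0.04 ± 0.08 and Camk1d -0.03 ± 0.06. For Synpr the log2 fold changes were 0.63, -0.11 ± 0.10 and 0.10 ± 0.10, for Marcks 0.44, -0.18 ± 0.08 and 0.14 ± 0.08, and for A830018L16Rik 0.62, -0.10 ± 0.10 and -0.02 ± 0.10. The other 3 upregulated genes had values on the far side of SCA1 from WT, with 0.28, 0.13 ± 0.05 and 0.18 ± 0.05 for Gpr22, 0.34, 0.12 ± 0.05 and 0.12 ± 0.05 for Hsd11b1, and 0.58, 0.08 ± 0.13 and 0.41 ± 0.13 for mt-Tp. For Calb1 the log2 fold change was 0.24 ± 0.06 against SCA1 (adjusted p = 0.632) and 0.07 ± 0.06 against SCA1 S776A. For Atxn1 it was 0.08 ± 0.08 and 0.02 ± 0.08.

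**Figure D5:**
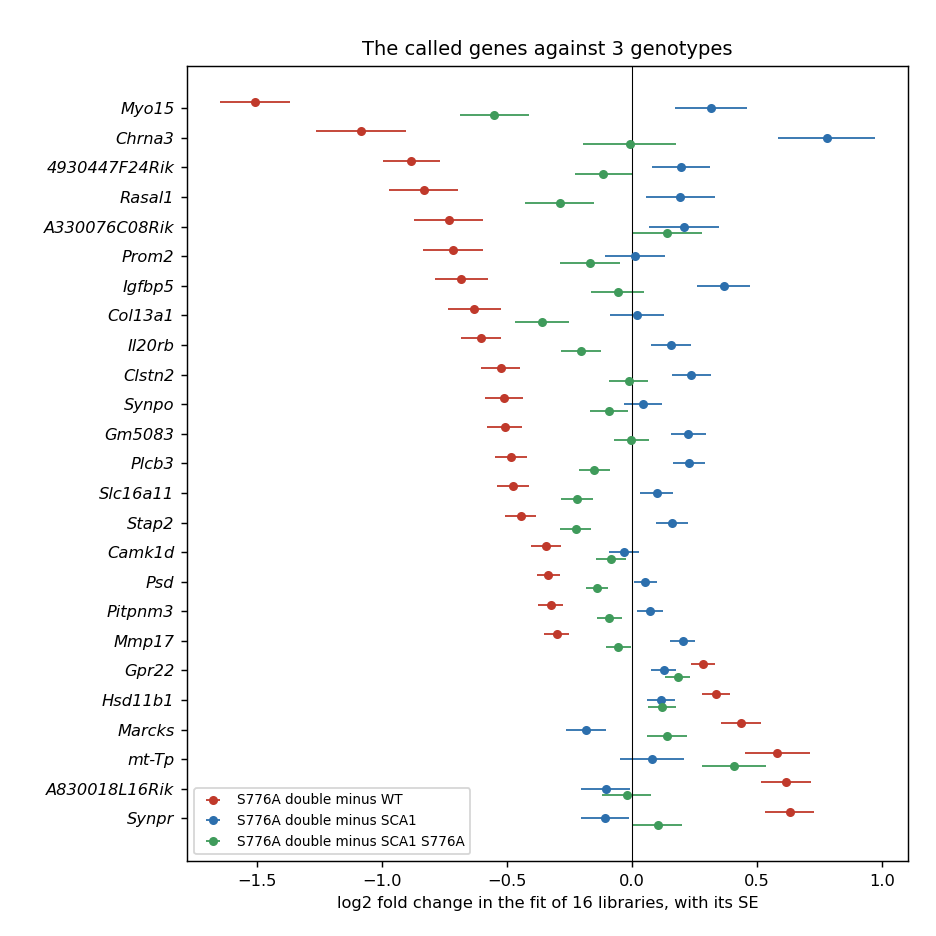
For 25 of the 26 genes, points give the log2 fold change of S776A double against WT (red), SCA1 (blue) and SCA1 S776A (green). The values come from the fit of 16 libraries, and bars give the SE. Myh4 is left out, as its SE in this fit was over 1.5 against all of these genotypes, WT included. Red points lie farthest from 0 in most genes, and Chrna3 has the largest difference from SCA1, 0.78.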

How the data were processed

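Total RNA of whole cerebella was sequenced. After trimming (Trimmomatic 0.36) and alignment to GRCm38.p6 (STAR 2.7.2d), the authors deposited whole-number counts of fragments per gene for each library, without normalization (versions from the submitters' processing notes). The unstranded counts were used. The files hold 54232 genes, and GENCODE M21 lists all but 67 of them. The labels list no batch, though the study sequenced in 2, so WT libraries were chosen by their share outside annotated genes. 1 more feature in these files and some members of the lists are not reported here.

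Counts of the 8 libraries were normalized by TMM (factors 0.981 to 1.02). After filterByExpr, 21156 genes entered the quasi-likelihood test in edgeR 4.0.16 (R 4.3.3), with Benjamini-Hochberg adjustment. The biological coefficient of variation was 12.1%. Genes were called at the thresholds of the study (adjusted p under 0.01, absolute log2 fold change over 0.5) or at an adjusted p under 0.05. The SE of a log2 fold change is its size over the square root of F. SCA1 and SCA1 S776A mice were added in a fit of 16 libraries and 22054 genes. The fit was also run on counts simulated from its own dispersions. No simulated mouse was made unlike the others, so this does not test how the fit handles such a mouse. Levels are CPM, counts scaled to a fixed library size. The choroid plexus covariate, the skeletal muscle list and DESeq2 and leave-outs on 16 libraries were chosen after seeing the data.

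The named genes were those called, then up to 15 in each direction at an adjusted p under 0.05. Where fewer than 8 passed, genes of lowest p with a log2 fold change over 0.5 and no overlap were added. Atxn1, Atxn1l, Calb1, Gfap, Gapdh and 2 to 4 members of each list with the lowest p were also named. Members and lists were chosen with earlier results of these data known. Gene lists are described by counts and medians, without a set test. Alternatives were DESeq2 1.42.0, ComBat-seq (sva 3.50.0) with DESeq2, other libraries, normalization and filters, Xist or choroid plexus genes as covariates, and leaving out each mouse. p-values set the difference between genotypes against the spread between mice. Depth limits only genes of a few counts per library.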

Additional observations from a re-analysis of the deposited data

Results flagged for a closer look

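In 11 of 188 groups of 4 mice, 1 mouse lay farther from the other 3 than the gap test allows, where chance gives about 1 in 20, or 9.4. All values here are log2 CPM. S776A double mouse 1 stood apart for Xist at 9.72 (others -0.97 to -0.58), for the Y-linked gene Kdm5d at -3.58 (others 5.55 to 5.77) and for the chaperone gene Hspa8 at 10.66 (others 10.47 to 10.49).

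The others were single WT mice. WT mouse 1 had Gapdh at 10.58. WT mouse 3 had Synpo at 3.984, Calb2 at 8.781 and Slc6a5 at 5.612. WT mouse 4 had Prom2 at 2.587, Igf2r at 6.383, Vegfa at 6.744 and the haemoglobin gene Hbb-bt at 2.898. Synpo and Prom2 are among the 26 genes called, and these WT mice are the ones nearest to the S776A double mice.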

How the results depend on the processing

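Counts below are of genes lower and higher by the strict rule, then in all, lower and higher at an adjusted p under 0.05. They were 8 and 3, and 56, 39 and 17, in the fit of 16 libraries, 5 and 1, and 18, 15 and 3, with all 24, 0 and 0, and 8, 8 and 0, with all 8 WT libraries unsplit, 23 and 13, and 344, 208 and 136, with DESeq2, 26 and 29, and 288, 117 and 171, with ComBat-seq and DESeq2, 16 and 5, and 135, 89 and 46, without a filter, 4 and 1, and 121, 98 and 23, with Xist as covariate, and 3 and 1, and 34, 24 and 10, with the choroid plexus covariate. Strict calls in all came to 11, 6, 0, 36, 55, 21, 5 and 4 in that order. A filter at 1 CPM gave 10 higher genes and RLE changed none of these counts. Leaving out 1 mouse gave 0 to 7 lower, 0 to 2 higher and 0 to 9 strict calls, and 1 to 143 genes, 1 to 111 lower and 0 to 32 higher, at an adjusted p under 0.05. Against SCA1 the count was 1 with 24 libraries, 8 with DESeq2 and 0 to 2 with a mouse left out. Under all 8 WT libraries unsplit, log2 fold changes that reversed were Slc16a11 0.0321, Pitpnm3 0.0798, Gfap -0.20, Gapdh -0.0852, Ywhab -0.0579, Ywhaq -0.13, Prkacb -0.0861, Igf2r 0.0265, Ntf3 -0.23, Hspa8 -0.17, Atf4 -0.0136, Asns -0.0827, mt-Atp6 -0.0597, mt-Nd3 -0.11, Kdm5d 0.12, Calb2 -0.10, Timp4 -0.0349, Col1a2 0.0465, Col1a1 0.0338, Hbb-bs -0.48 and Hbb-bt -0.57. Kdm5d reversed to 0.0152 with ComBat-seq and 0.0464 with Xist, and Gfap to -0.0329 with Xist. With a mouse left out, values that changed sign ranged from -0.0248 to 0.0117 for Calb1, -0.0242 to 0.0407 for Gfap, -0.61 to 0.0378 for Kdm5d, -0.52 to 0.0998 for Lmx1a, -0.00811 to 1.07 for Kcnj13. The cause was not tested. Of single-gene values, 1367 kept direction and side of the threshold, 146 fell below it and 49 rose past it. No paired analysis was possible because the labels give the mice no replicate numbers, and the numbers used here only name mice in accession order.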

Other observations

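The lists in this paragraph held 0 genes past an adjusted p of 0.05. Of 15 immediate early genes tested of 16, which respond within minutes to neuronal activity, 10 had a positive log2 fold change and the median was 0.17, but it was 0.03 without S776A double mouse 1, -0.01 without WT mouse 1 and 0.01 without WT mouse 2. Fos was at 43.9, 41.2, 47.4 and 19.8 CPM in S776A double mice and 13.2, 15.9, 43.1 and 26.1 CPM in WT mice, so the groups overlapped widely. The 15 clock genes had a median of -0.19, with 3 lower and 2 higher at an unadjusted p under 0.05, and Npas2 had 0.41 ± 0.15. The shares over all genes tested were 6.25% lower and 5.86% higher. Of 18 genes of cholesterol synthesis 9 had a negative and 9 a positive log2 fold change, and the regulator Srebf2 had -0.16 ± 0.05 (adjusted p = 0.253). In the integrated stress response list of 8 genes the median was 0.01, and its transcription factor Atf4 had 0.14 ± 0.06 (adjusted p = 0.328).

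Among growth factor pathways, 13 genes of insulin-like growth factor signaling had a median of -0.04, with Igfbp5 as the only gene called. At an adjusted p under 0.05, 0.0945% of all genes tested were lower. The median was 0.01 for 8 genes of the VEGF pathway, with Flt1 at -0.36 ± 0.21. It was -0.01 for 8 tested genes of neurotrophin and cholecystokinin signaling, with Bdnf at 0.25 ± 0.18. Medians were -0.03 for 3 genes of unipolar brush cells, -0.09 for 10 of endothelial cells and pericytes, -0.01 for 4 of the deep cerebellar nuclei, 0.15 for 5 of blood and 0.40 for 4 of ependymal cells. Of 8 genes of the brainstem 2 were tested, and their summed level was 4.34, 1.19, 1.603 and 1.45 CPM in S776A double mice 1 to 4 and at most 1.46 CPM in WT mice, so S776A double mouse 1 stood above the other 7. The ependymal gene Tmem212 was at 1.47, 1.56, 1.43 and 1.27 CPM in S776A double and 0.317, 0.326, 1.53 and 0.672 CPM in WT mice, where WT mouse 3 stood at the level of the S776A double mice (log2 fold change 1.01 ± 0.44, adjusted p = 0.405). Without WT mouse 3, Tmem212 and Ccdc153 of this list passed an adjusted p of 0.05 (both higher). Gapdh, a common reference gene, had a log2 fold change of 0.08 ± 0.05.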
